A study of Mus musculus with 12 samples.

Results

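Integrins are receptors that hold a cell to its surroundings, each built from 1 α and 1 β subunit. The 10 subunit genes Itgam, Itgb2, Itgax, Itgal, Itga4, Itgb1, Itgav, Itgb5, Itga5 and Itga6 were chosen by symbol, and all 10 were found among the 35050 rows of the gene count table. Bulk RNA sequencing of mouse peritoneal macrophages gave 12 libraries, 3 in each of 4 groups. All cells came from mice labelled male and 8 weeks old, and were taken 3 days after 3% Brewer thioglycolate was injected into the peritoneum, an irritant that brings in new leukocytes. The WT groups are labelled Ern1fl/fl, the floxed allele. The KO groups (labelled Mac-Ern1KO) lacked Ern1 in macrophages per their name, and the Cre driver is not given in the sources used here. Ern1 encodes IRE1α, a sensor of stress in the endoplasmic reticulum. In the R300 groups of either genotype the macrophages spent 2 h with platelets opsonized by R300, an antibody against CD42 on the platelet surface. The blank groups are labelled Con, and whether they received platelets is not stated. Libraries are named below by genotype, treatment and replicate number.

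The integrins of these cells fall into families that share a β subunit. The β2 subunit (Itgb2) pairs with αM, αX and αL, encoded by Itgam, Itgax and Itgal, to form the leukocyte integrins Mac-1, CD11c/CD18 and LFA-1. Mac-1 is also complement receptor 3 and takes up complement-coated particles, while LFA-1 binds ICAM-1 on other cells. The β1 subunit (Itgb1) pairs with α4, α5 and α6, encoded by Itga4, Itga5 and Itga6, which bind VCAM-1 and fibronectin, fibronectin, and laminin. The αv subunit (Itgav) pairs with β5 (Itgb5) in a vitronectin receptor that also takes part in the uptake of apoptotic cells. Platelets carry a receptor of their own, αIIbβ3.

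Facts of the whole set of libraries bear on every value below. Total counts ran from 21765586 in WT blank 1 to 44273655 in KO blank 2, and the lowest count of any member in any library was 2774, for Itgax in WT blank 1. Xist RNA coats and silences 1 of the X chromosomes of female cells, and reached 143 to 590 CPM (TMM-normalised counts scaled to library size) in 8 libraries. In the other 4 (the third library of WT blank, KO blank and KO R300 and the second of WT R300) it was at most 0.0742 CPM, so 1 library of each group stood apart. Transcripts of Y-linked genes reached 205 to 224 CPM in sum where Xist was missing. Where Xist was present (8 libraries) the sum was 42.6 to 162 CPM, so these held both, which goes against the label of male mice. WT R300 1 and 3 were much alike, with a median chi-square per gene of 1.37, as were KO R300 1 and 2, with 1.53, against 6.15 to 10.3 for other pairs within a group and 0.455 for sampling noise alone. Ern1 itself was not lower in KO. Blank cells held 113, 117 and 94.1 CPM in WT, against 150, 155 and 116 CPM in KO, and counts over a whole gene do not check the loss of a floxed exon. All 10 macrophage markers examined were detected in every library, with Lyz2 (lysozyme) at 6058 to 13522 CPM.

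Itgam and Itgax lie next to each other on mouse chromosome 7 in the GRCm38 assembly. Itgam runs from 128062640 to 128118491 and Itgax from 128129547 to 128150657, both on the plus strand, with 11055 bases between them, and Itgal lies 727501 bases before Itgam. Of the members, Itgam and Itgax had the least similar profiles over the libraries (described below), and Itgb5 had the widest range. The 250 bases before the start site of these 3 genes are therefore shown, 5′ to 3′ on the gene's strand, from the RefSeq annotation of GRCm38.p6. They lie at chr7:128062390-128062639, chr7:128129300-128129549 and chr16:33829415-33829664. Capitals mark GAGGAA, a core of sites for the myeloid factor PU.1, and TGANTCA, the AP-1 site, each searched on both strands.

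Itgam: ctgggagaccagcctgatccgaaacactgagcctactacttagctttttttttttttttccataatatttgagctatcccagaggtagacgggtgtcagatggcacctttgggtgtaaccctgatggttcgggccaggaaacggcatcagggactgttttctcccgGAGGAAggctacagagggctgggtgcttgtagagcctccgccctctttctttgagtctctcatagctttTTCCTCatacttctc
Itgax: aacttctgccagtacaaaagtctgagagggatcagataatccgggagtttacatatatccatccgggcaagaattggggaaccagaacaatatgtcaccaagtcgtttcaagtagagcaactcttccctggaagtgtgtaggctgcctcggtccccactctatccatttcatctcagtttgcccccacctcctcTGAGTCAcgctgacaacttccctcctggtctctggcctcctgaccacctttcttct
Itgb5: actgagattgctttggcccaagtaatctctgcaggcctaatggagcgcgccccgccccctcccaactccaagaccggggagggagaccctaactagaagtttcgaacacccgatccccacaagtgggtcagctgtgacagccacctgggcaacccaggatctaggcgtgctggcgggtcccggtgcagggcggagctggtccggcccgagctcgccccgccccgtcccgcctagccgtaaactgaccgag

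The Itgam window held the PU.1 core at 84 and 15 bases before the start. The Itgax window held none and 1 AP-1 match. The Itgb5 window held neither, but 3 matches to GGGCGG, the GC box, against 1 in Itgam and 0 in Itgax. These letter matches are common. Among 32817 windows of that length, 23.3% held GAGGAA, 32.7% held GGGCGG and 6.75% held TGANTCA. Promoter windows were matched for 7 of the 10 members, not for Itgb2, Itgal and Itga6. Of the matched windows not shown, those of Itgav, Itgb1 and Itga5 also held GAGGAA, and that of Itga4 did not.

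How abundant each subunit was is given per kilobase of exon, as TMM-normalised CPM divided by the length of all annotated exons of the gene. Itgb2 was highest, with a mean level of 685 CPM per kb over the 12 libraries, and Itgb1 followed with 211. Their ranges did not overlap, and Itgb2 alone made up 55.9% of the summed level of the 10 members (49.5% to 58.8% by library). Then came Itga5 with 98, Itgam with 74.9, Itgb5 with 45.6, Itgal with 32.3, Itgax with 27.8, Itgav with 21.9, Itga6 with 13.8 and Itga4 with 13.4 CPM per kb. From Itga5 downward, the ranges of all neighbours in this order overlapped. Itgal was above Itgax in only 7 of 12 libraries and Itga6 above Itga4 in 8 of 12, while Itgav was above Itga6 in 11 of 12.

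With the length of the longest coding transcript, Itgax and Itgav changed places and the other ranks stayed. The place of Itgam is less certain. Of its exonic bases, 68.7% are shared with Gm49368, a gene model on the same strand that was counted 1 to 20 times a library, and how reads on both were assigned is not given in the sources used here. If no read on the shared bases was counted for Itgam, all its counts would belong to its 1574 unshared bases. Its level would then be 239 CPM per kb and its rank 2.

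**Figure D1:**
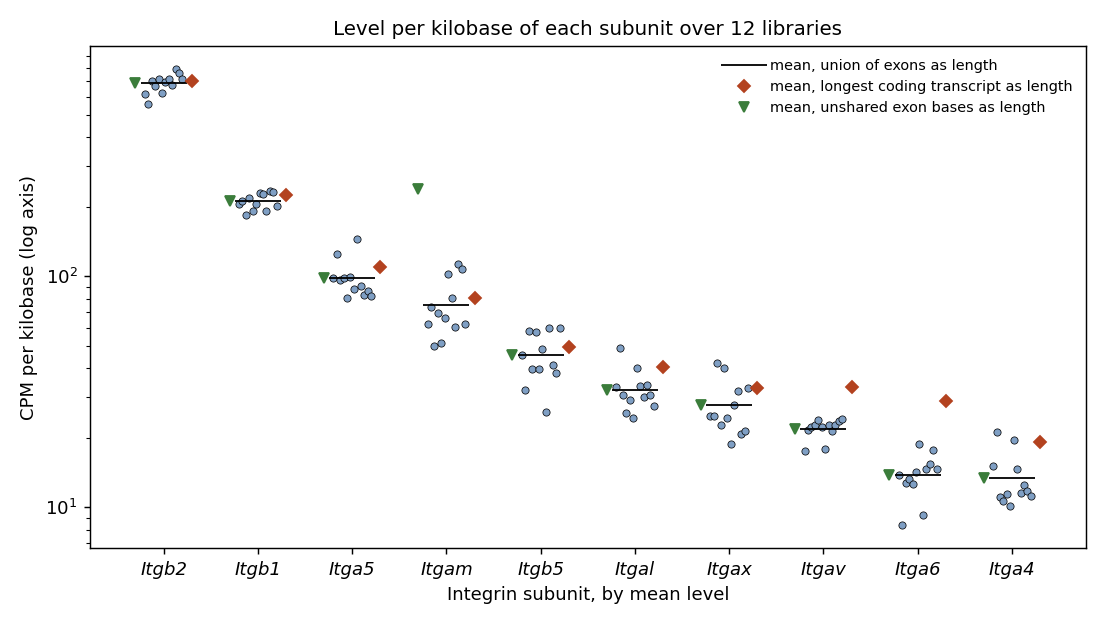
Level of each member in TMM-normalised CPM per kilobase of exon, on a log axis, in each of the 12 libraries (circles), with the mean (line). The mean of all counts is also given with the longest coding transcript (diamonds) or the unshared exon bases (triangles) as length. Itgb2 and Itgb1 stand clear of each other and of Itga5, and from Itga5 down the libraries of neighbouring genes overlap.

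The first question is whether 2 h with coated platelets changed these transcripts. No member passed the test in either genotype. In R300 WT against blank WT, edgeR called 0 of 10 at an adjusted p under 0.05, where 0.623% of the 16546 genes tested were called. In R300 KO against blank KO it again called 0 of 10, where the share over all genes was 0.834%. Without adjustment, p was under 0.05 for 2 members in WT, both lower, and for 0 in KO, against 8.72% and 8.78% of all genes in either direction. Treated and blank libraries did not overlap for 1 member in WT and 3 in KO, against 12.8% and 12.3% of all genes. DESeq2 called 0 of 10 in both. The median log2 fold change of the 10 was 0.0082 in WT and 0.045 in KO, against -0.0047 and -0.0036 over all genes. Averaged over both genotypes, 6 R300 against 6 blank libraries, edgeR called 0 of 10 where 3.64% of all genes were called, and DESeq2 called 0. At an unadjusted p under 0.05 there were 2, both lower, against 15.6% of all genes, and 0 had libraries that did not overlap, against 4.01%.

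Among the β2 integrins, the common subunit Itgb2 was the steadiest. It measured 1885, 1696 and 2148 CPM in the WT blank libraries, against 2030, 2178 and 1896 CPM with R300. In KO it was 2115, 2182 and 2055 CPM in blank cells, against 2418, 2308 and 2182 CPM with R300. The WT groups overlapped. In KO every R300 library was at or just above the highest blank library, a log2 fold change of 0.12 (SE 0.11, edgeR adjusted p = 0.920). In that comparison 6.64% of all genes were higher without overlap.

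Itgam, the α subunit of Mac-1, stood at 314, 369 and 250 CPM in blank WT cells, against 348, 258 and 331 CPM with R300. In KO it ranged more widely, from 516, 406 and 302 CPM in blank cells to 569, 542 and 312 CPM with R300. The treated and blank libraries overlapped in both genotypes. Its log2 fold change with R300 was 0.01 in WT (95% interval -0.56 to 0.57) and 0.22 in KO (-0.34 to 0.78).

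Itgax, the α subunit of CD11c/CD18, was 120, 120 and 202 CPM in blank WT cells, against 109, 193 and 117 CPM with R300. The KO values were 90.2, 134 and 154 CPM in blank cells, against 99.7, 103 and 158 CPM with R300. The library without Xist was the highest of each group, and the groups overlapped. The log2 fold changes were -0.08 in WT and -0.07 in KO (SE 0.30 in each).

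Itgal, the α subunit of LFA-1, had the lowest unadjusted p of any member in a single genotype. Blank WT cells held 217, 322 and 202 CPM, against 169, 192 and 160 CPM with R300, so all 3 treated libraries lay below all 3 blank libraries. The log2 fold change was -0.51 (SE 0.18, edgeR unadjusted p = 0.0163, adjusted p = 0.384). It was the 1 member of 10 with such a gap in WT, where 6.09% of all genes were lower without overlap. WT blank 2 was the high library, and without it the difference was -0.27 (adjusted p = 0.819). In KO the blank libraries held 265, 220 and 198 CPM and the R300 libraries 223, 201 and 181 CPM, which overlapped, with a log2 fold change of -0.17 (SE 0.18, adjusted p = 0.934). The difference between the genotypes' responses was 0.34 (SE 0.25, adjusted p = 1.00).

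Among the partners of β1, Itga4 showed the same direction as Itgal. The α4 subunit, which with β1 binds VCAM-1 and fibronectin, had 211, 296 and 155 CPM in blank WT cells, against 150, 160 and 142 CPM with R300. The corresponding KO values were 272, 205 and 161 CPM, against 174, 165 and 157 CPM with R300. The blank libraries were spread out, while the R300 libraries lay close together near the lowest blank library, and the groups overlapped. The log2 fold changes were -0.55 in WT (SE 0.23, adjusted p = 0.502) and -0.36 in KO (SE 0.22, adjusted p = 0.779), and the average over genotypes was -0.46 (SE 0.16, adjusted p = 0.172). Without WT blank 2 the WT value was -0.28 (adjusted p = 0.912). In the 8 libraries with Xist alone the average was -0.64 (SE 0.14) and passed the test with an adjusted p of 0.0415, and over the 20 alternatives run the adjusted p ranged from 0.0415 to 0.590. The average for Itgal was -0.34 (SE 0.13, adjusted p = 0.208).

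Lymphocytes carry LFA-1 and α4 integrins, and their markers were highest in the same library as Itgal and Itga4 in WT, but not in KO. The summed level of 10 B cell markers was highest in WT blank 2 (297 CPM) and KO blank 2 (269 CPM), against 62.2 to 137 CPM in the other libraries, with all 10 detected in every library and Ighm the most abundant. The summed level of 13 T and NK cell markers was also highest there, at 20.7 and 18.9 CPM, against 4.93 to 10.6 CPM elsewhere. In WT, WT blank 2 was also highest for Itgal and Itga4. In KO the highest library for both was KO blank 1, where the B cell markers summed to 137 CPM and the T and NK cell markers to 6.70 CPM. Markers of other cells moved with R300 as well. Over both genotypes 2 of 10 recruited monocyte markers fell, Cx3cr1 and Gpr141, with a median log2 fold change of the list of -0.36. Of 9 mast cell and eosinophil markers tested, 3 rose, Gata2, Mcpt4 and Tpsb2, with a median of 0.88, and the list summed to 16.4 to 63.3 CPM in blank and 40.3 to 86.8 CPM in treated libraries. Of the 10 B cell markers 0 had a positive average difference and 0 were called by edgeR, with a median of -0.93 and 5 lower at an unadjusted p under 0.05. Cd14 of the macrophage list and Ccr7 of the dendritic cell list also rose, but in each list only 5 of 10 had a positive average difference. The medians of these 2 lists were 0.0038 and 0.050. Over all genes, 2.43% were called higher and 1.21% lower. All 12 mesothelial and fibroblast markers tested had a positive average difference, with a median of 0.80 and 0 called. The part of these cells in the differences of Itgal and Itga4 was not tested. In bulk libraries, fewer cells of a type and less RNA per cell cannot be told apart.

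Itga5, the α subunit of the main fibronectin receptor, was 484, 618 and 477 CPM in blank WT cells, against 488, 398 and 490 CPM with R300. In KO it was 437, 714 and 448 CPM, against 411, 428 and 406 CPM with R300. In KO every treated library was below every blank library, as for 5.68% of all genes, and in WT the groups overlapped. The log2 fold change was -0.36 in KO (SE 0.19, adjusted p = 0.671) and -0.20 in WT (SE 0.19, adjusted p = 0.868). KO blank 2 was the highest of all libraries.

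Itga6, whose product binds laminin, was lowest in the same 2 libraries in which the B cell markers were highest. In WT it measured 124, 75.4 and 116 CPM in blank cells, against 120, 114 and 128 CPM with R300. In KO these were 169, 83.5 and 132 CPM, against 139, 160 and 132 CPM. Treated and blank libraries overlapped, with log2 fold changes of 0.20 in WT and 0.16 in KO (SE 0.24 in each). The shared subunit Itgb1 hardly varied. Its 12 libraries ran from 751 to 954 CPM, and its log2 fold change was 0.03 in WT and 0.04 in KO (SE 0.11 in each), with 95% intervals of -0.22 to 0.28 and -0.21 to 0.29.

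The vitronectin receptor subunits differed from each other in spread. Itgav was 188, 232 and 240 CPM in blank WT cells, against 244, 256 and 239 CPM with R300. In KO it was 192, 243 and 230 CPM in blank cells, against 244, 253 and 259 CPM with R300. In KO the treated libraries lay just above the blank ones, and in WT they overlapped. The changes were small, at 0.16 in WT (SE 0.12, adjusted p = 0.794) and 0.19 in KO (SE 0.12, adjusted p = 0.779). Itgb5 was 163, 115 and 207 CPM in blank WT cells, against 141, 205 and 141 CPM with R300, and its KO values were 173, 91.5 and 213 CPM, against 146, 135 and 213 CPM. Here the spread within a group was far larger than any difference between groups, with log2 fold changes of 0.01 and 0.05 (SE 0.31 in each). The 95% interval in WT, -0.68 to 0.70, was the widest of the 10 members.

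**Figure D2:**
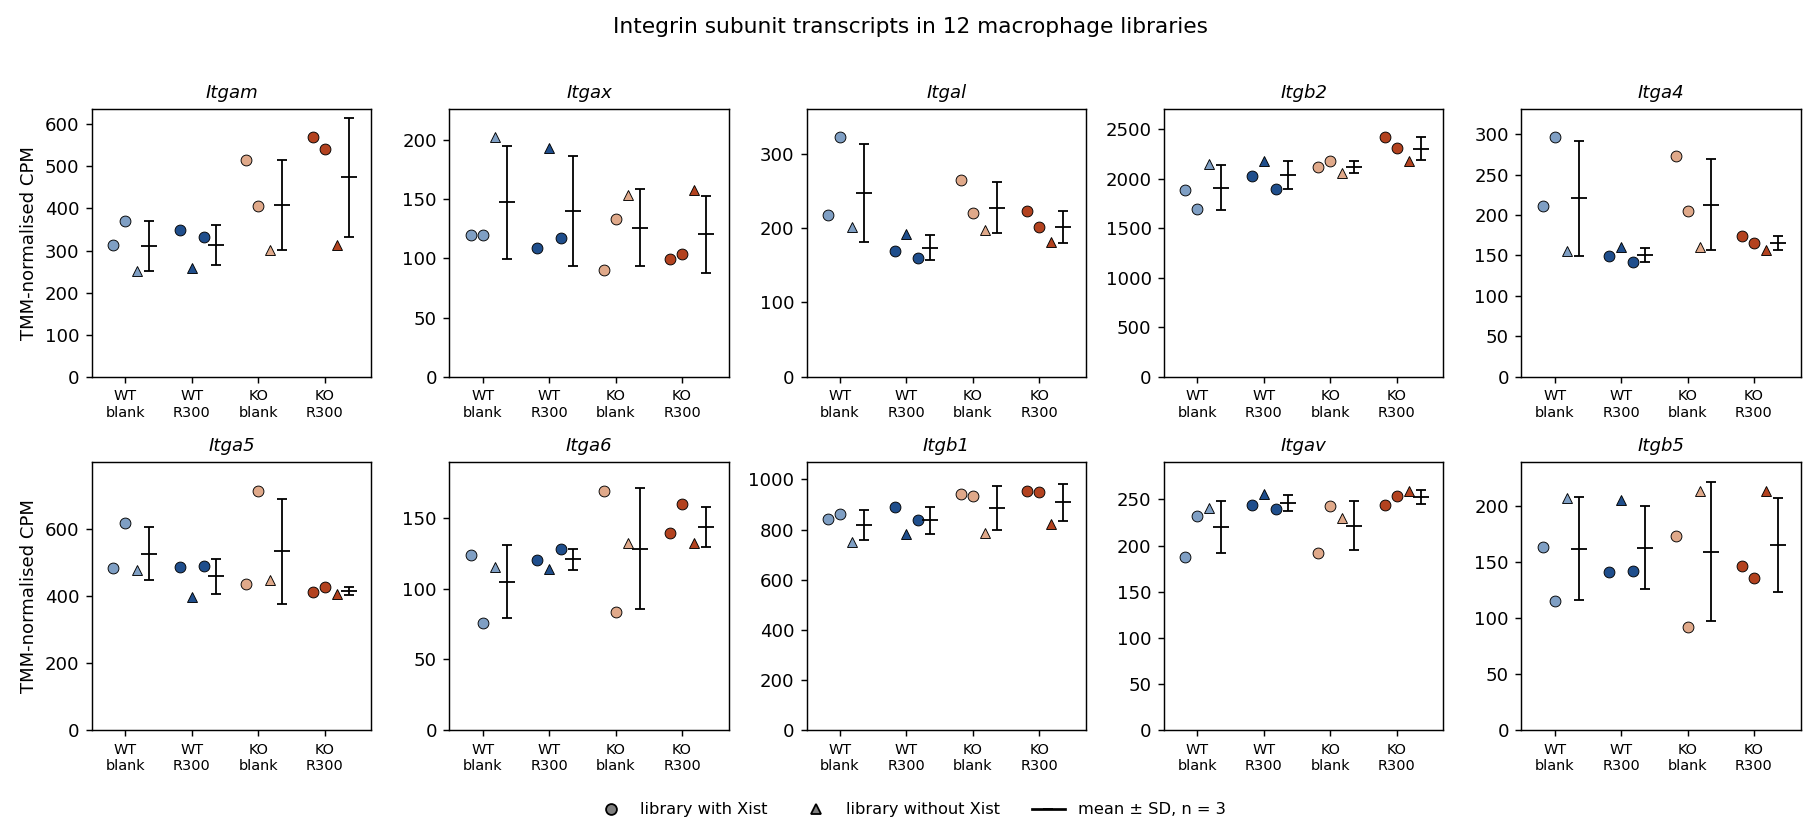
TMM-normalised CPM of the 10 members in each library, by group, with the mean and SD of 3 libraries; triangles are the 4 libraries without Xist. The group means lie within the spread of their libraries for most members, and the triangles sit low for Itgam and Itgb1 and high for Itgax and Itgb5.

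The second question is whether loss of Ern1 changed them. In blank KO against blank WT, edgeR called 0 of 10 members and 0% of all genes, with 0 members at an unadjusted p under 0.05, against 1.09% of all genes, and 0 without overlap, against 3.7%. In R300 KO against R300 WT it also called 0 of 10 and 0% of all genes, with 1 member higher at an unadjusted p under 0.05, against 1.96% of all genes, and 2 without overlap, against 7.91%. Averaged over both treatments, 0 of 10 were called, against 0.00604% of all genes, and 1 was higher at an unadjusted p under 0.05, against 2.8%, with 0 free of overlap, against 0.242%. DESeq2 called 0 of 10 in each of these.

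The member with an unadjusted p under 0.05 was Itgam. Using the values above, it was 1.52 times as high in R300 KO as in R300 WT, a log2 fold change of 0.60 (SE 0.26, edgeR unadjusted p = 0.0388, adjusted p = 1.00), and the libraries overlapped. In blank cells the difference was 0.39 (SE 0.26, adjusted p = 1.00), and the average over both treatments was 0.50 (SE 0.18, unadjusted p = 0.0194, adjusted p = 1.00). With a term for the libraries without Xist the average was 0.47 with a smaller error (SE 0.08, adjusted p = 0.0755), and in the 8 libraries with Xist alone it was 0.58 (SE 0.10, adjusted p = 0.387). In the libraries without Xist, 1 a group, KO exceeded WT by 0.27 on the log2 scale in both treatments, which has no replicate check.

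Other differences between those libraries moved with Itgam. The libraries with the highest Itgam, KO R300 1 and 2 and KO blank 1, were also those with the highest Xist, 553 to 590 CPM, against 143 to 464 CPM in the other 5 libraries that hold it. Those 3 also held the highest summed level of 10 recruited monocyte markers, 26458 to 29085 CPM against 8226 to 15778 CPM in the others. Nearly all of that sum is Fn1, fibronectin, which ran from 7852 to 28640 CPM and is itself a ligand of α5β1 and α4β1. The sum therefore follows Fn1 and does not show whether the rest of the list was higher in those libraries. All 10 of these markers were detected in every library. The 11 markers of resident peritoneal macrophages were high there too, at 1041 to 1183 CPM against 655 to 812 CPM in the 6 WT libraries, but KO blank 2 had 1077 CPM at an Itgam of 406 CPM. KO blank 3 and KO R300 3, both without Xist, had 467 and 486 CPM, below every WT library. Of the 10 resident markers tested 8 had a positive average KO difference, with a median log2 value of 0.72, and 0 were called.

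The summed level of general macrophage markers did not overlap between the genotypes. The 10 markers summed to 17700 to 19585 CPM in the 6 WT libraries and 11321 to 14983 CPM in the 6 KO libraries. Most of this difference is Lyz2, the only gene of all tested that was called in the average KO effect, with 12183 to 13522 CPM in WT, 6058 to 7317 CPM in KO and a log2 difference of -0.89 (SE 0.08, edgeR adjusted p = 0.00508). With only the libraries with Xist, or with 1 library of each near-alike R300 pair, 0 genes were called. The median of the list was -0.03. The part of Xist, of Lyz2 and of these cells in the difference of Itgam was not tested.

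The other members differed less between genotypes. Itgb2 and Itga6 were higher in R300 KO than in R300 WT without overlap, as were 4.03% of all genes, by 0.18 (SE 0.11) and 0.25 (SE 0.24) on the log2 scale, each with an adjusted p of 1.00. The remaining 7 had log2 differences of -0.22 (Itgax) to 0.22 (Itgal) in R300, and their 95% intervals all include 0. The median over the 10 members was 0.13 in R300 and 0.014 in blank cells, against -0.0059 and 0.0025 over all genes.

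The third question is whether the response to coated platelets differed between genotypes. For this difference edgeR called 0 of 10 members and 0% of all genes, with 0 members at an unadjusted p under 0.05, against 0.574% of all genes, and DESeq2 called 0. The differences of the log2 responses, KO minus WT, ran from -0.16 for Itga5 to 0.34 for Itgal. The interval of the Itgal difference, -0.22 to 0.89, and that of Itgb5, -0.94 to 1.02, show how little a difference of 2 differences is bounded here.

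**Figure D3:**
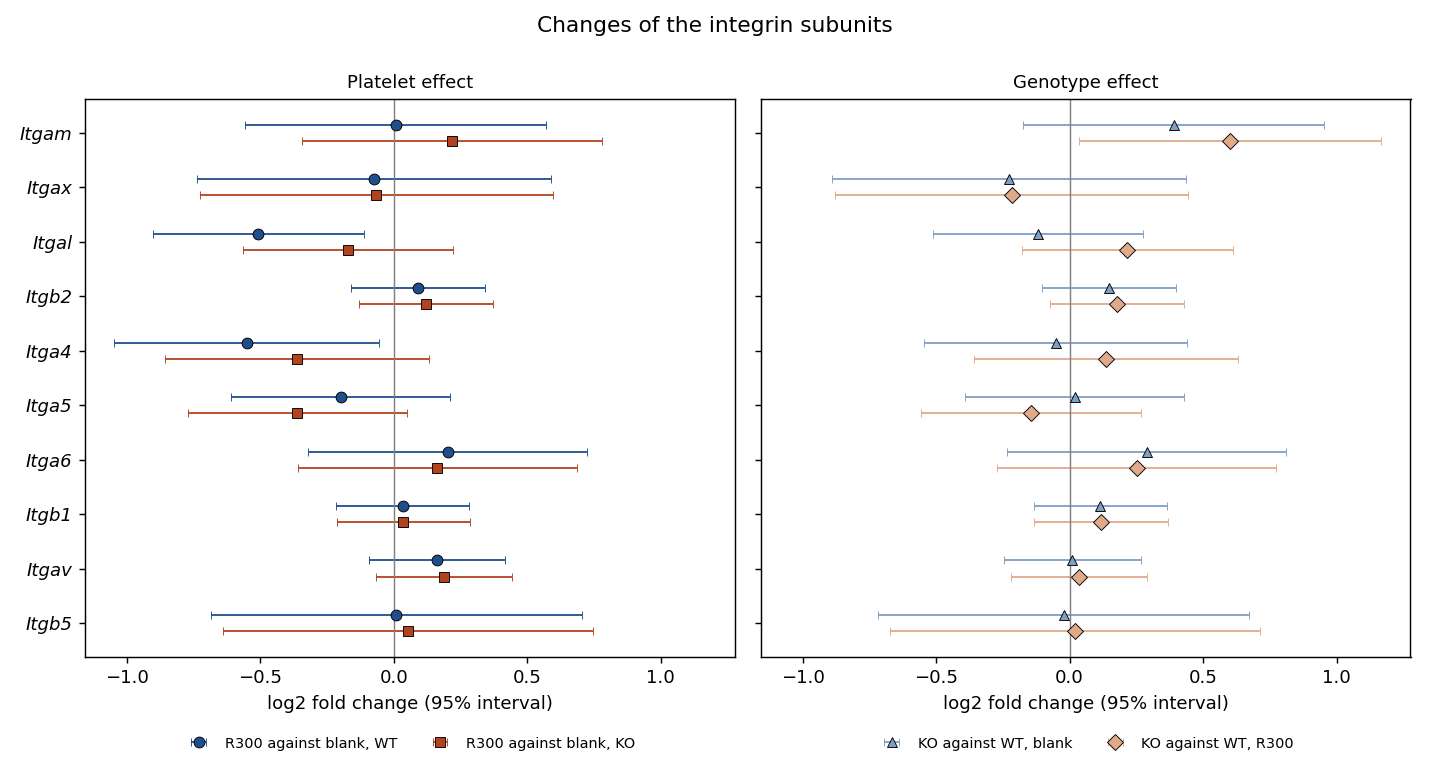
Log2 fold changes of the 10 members with 95% intervals from edgeR in the comparisons of treatment and genotype. Most intervals include 0; those of Itgal and Itga4 with R300 in WT lie below it and that of Itgam in R300 KO against R300 WT lies above it, before adjustment for all genes tested.

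Another contrast ran across the groups. In the 4 libraries without Xist, Itgam lay at 250 to 312 CPM, below the 314 to 569 CPM of the 8 libraries with Xist, and Itgb1 at 751 to 821 CPM, below 838 to 954 CPM. Itgax lay at 154 to 202 CPM, above 90.2 to 134 CPM, and Itgb5 at 205 to 213 CPM, above 91.5 to 173 CPM. Thus 4 of 10 members did not overlap between these libraries, 2 higher and 2 lower, against 13% of all genes, 7.55% higher and 5.44% lower. Itgam, the α subunit of Mac-1, and Itgax, its neighbour on the chromosome and partner of the same β subunit, went in opposite directions. The ratio of their levels per kilobase of all exons, Itgax to Itgam, had a median of 0.357 over the 12 libraries and ran from 0.183 to 0.845. If no read on the bases Itgam shares with Gm49368 was counted, the ratio would be smaller. These libraries were set apart by Xist in the data and not by the labels, so the values are a description with no test.

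Marker levels moved with this contrast. In the libraries without Xist, 11 markers of resident peritoneal macrophages summed to 467 to 684 CPM, against 719 to 1183 CPM in the others, with F10 the most abundant at 301 to 693 CPM over all libraries. The recruited monocyte markers summed to 8226 to 11141 CPM, against 14631 to 29085 CPM, and 11 platelet markers to 57.1 to 75.1 CPM, against 90.7 to 133 CPM. Pf4 alone made up most of the platelet sum, with 40.2 to 114 CPM, as Fn1 did of the monocyte sum. These sums thus largely follow Pf4 and Fn1, and do not show that the rest of either list differed. The sums of the 10 dendritic cell markers, a class known for high Itgax, overlapped at 43.0 to 68.8 and 39.7 to 93.0 CPM. The sums of the macrophage, neutrophil, mesothelial, mast cell, B cell and T and NK cell markers also overlapped. No list had a marker at 0 in every library. The part of these cells in the contrast was not tested.

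Within the 4 libraries without Xist the R300 response of the members was small. It ran from -0.26 for Itga5 to 0.09 for Itgav on the log2 scale in WT, and from -0.14 for Itga5 to 0.18 for Itgav in KO. Itgal changed by -0.07 in WT, against -0.51 in the whole groups, and by -0.13 in KO, against -0.17. Itga4 changed by 0.05 in WT and -0.04 in KO, against -0.55 and -0.36. There was 1 library a group and no test.

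Similarity of profile was measured as the root mean square difference of log2 CPM, centred over the 12 libraries. The closest pair of members was Itgal and Itga4, with 0.122, and the most distant was Itgam and Itgax, with 0.710. No member was called, so the genes closest to the member with the widest range, Itgb5, were sought among 12099 genes. Rasa3 was closest with 0.0579, then Mettl7a1 with 0.112 and Prkag2 with 0.116, against a median of 0.434 over those genes. Rasa3 ran from 103 CPM in KO blank 2 to 262 CPM in WT R300 2, and like Itgb5 was highest in the 4 libraries without Xist. All these profiles share the same libraries and their composition.

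Other integrin subunits were mostly scarce. Of 16 looked up, 13 were abundant enough to test, and Itgad, Itga8 and Itgb6 were not. Itgb7, a second β partner of α4 and typical of lymphocytes and mucosal leukocytes, was the exception. Its mean level was 212 CPM, or 76.6 CPM per kb, below Itgb1 in 12 of 12 libraries but above its α partner Itga4 and above Itgb5 in 12 of 12, and above Itgam in 9 of 12. The order against Itgam holds for the length of all exons. If no read on its shared bases was counted, Itgam would have a mean of 239 CPM per kb. Itgb7 was highest in KO blank 2 (275 CPM) and lowest in KO blank 1 (149 CPM), and did not pass the test with R300 (average log2 fold change -0.06, SE 0.16, adjusted p = 0.902). Next were Itga3 and Itga9, with only 1.68 and 1.46 CPM per kb. The platelet pair was near the floor, with Itga2b at 1.73 to 3.08 CPM and Itgb3 at 3.50 to 8.94 CPM. None of the 13 was called in any comparison. The lowest p belonged to Itga1, a collagen receptor subunit, with a log2 difference of 0.61 in R300 KO against R300 WT (SE 0.22, unadjusted p = 0.0200, adjusted p = 1.00).

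Some genes that bind or control integrins were called with coated platelets. Their lists were chosen with earlier results of these data known, so the counts called are a description and no test of the lists. Of 28 ligands and bridging proteins tested, 2 rose in each genotype, and over both genotypes 3 rose and 1 fell. Of 26 activators and regulators, 2 rose in each genotype, and over both genotypes 2 rose and 2 fell. Of 38 adaptors and kinases of adhesion sites, 1 rose in each genotype, and over both genotypes 1 rose and 3 fell. Of 17 tetraspanins and lateral partners none was called. Median log2 fold changes over both genotypes were 0.46, -0.083, -0.022 and 0.12 in this order, against -0.0032 over all genes. The ligand list holds collagens and laminins, and shares Col1a1 and Col3a1 with the mesothelial and fibroblast markers. Those markers had a median of 0.80, with 12 of 12 tested positive and 0 called. The part of mesothelial cells and fibroblasts in the median of the ligands was not tested. Over all genes, 0.55% rose and 0.0725% fell in WT, 0.695% and 0.139% in KO, and 2.43% and 1.21% over both genotypes. In the genotype comparisons and for the difference of responses none of these genes was called.

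Cytip and Cyth1 had the largest called changes among the regulators. Cyth1 encodes cytohesin-1, which binds the tail of β2 and promotes LFA-1 adhesion, and Cytip encodes a partner that binds cytohesin-1 and restrains it. Cytip was 39.5, 90.4 and 60.9 CPM in blank WT cells, against 359, 412 and 346 CPM with R300, and its KO values were 46.9, 69.1 and 64.4 CPM, against 322, 326 and 426 CPM. All 6 treated libraries lay far above all 6 blank libraries, as 2.57% of all genes lay above without overlap. The log2 fold changes were 2.55 in WT (SE 0.27, adjusted p = 0.00144) and 2.57 in KO (SE 0.27, adjusted p = 0.00125). Cyth1 was 143, 142 and 118 CPM in blank WT cells, against 521, 354 and 497 CPM with R300, and its KO values were 159, 112 and 139 CPM, against 599, 558 and 427 CPM. It rose by 1.77 (SE 0.19, adjusted p = 0.00144) and 1.95 (SE 0.19, adjusted p = 0.000846) on the log2 scale, again with no overlap.

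Pxn, paxillin, an adaptor of adhesion sites that binds the α4 tail, rose in both genotypes. In WT it was 190, 211 and 187 CPM in blank cells, against 328, 374 and 318 CPM with R300. In KO it was 182, 204 and 183 CPM, against 296, 285 and 374 CPM. These are log2 fold changes of 0.80 (SE 0.12, adjusted p = 0.0157) and 0.75 (SE 0.12, adjusted p = 0.0174). Adam8, a membrane metalloprotease with an integrin-binding disintegrin domain, rose by 1.34 (SE 0.22, adjusted p = 0.0221) and 1.31 (SE 0.22, adjusted p = 0.0202), from 327 to 600 CPM in the 6 blank libraries to 1131 to 1272 CPM in the 6 treated ones. Thbs1, thrombospondin-1, a ligand of αv integrins and CD36, rose by 3.36 on average (SE 0.40, adjusted p = 0.000968). The calls of Pxn, Adam8 and Thbs1 within 1 genotype were lost when single libraries were left out (adjusted p up to 0.163 for Thbs1, 0.198 for Adam8 and 0.0946 for Pxn in WT, and 0.151, 0.147 and 0.148 in KO, over all alternatives), while the averages passed in all 20 alternatives.

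Lower transcripts passed the test only in the average over both genotypes. Icam1, the ligand of LFA-1 and Mac-1, was 192, 330 and 197 CPM in blank WT cells, against 94.1, 145 and 88.9 CPM with R300. In KO it was 186, 325 and 167 CPM, against 87.1, 82.6 and 115 CPM. Treated and blank libraries did not overlap, where 1.44% of all genes were lower without overlap, and the average log2 fold change was -1.19 (SE 0.22, adjusted p = 0.0116). Apbb1ip, RIAM, which brings talin to integrins downstream of Rap1, fell by 0.68 (SE 0.15, adjusted p = 0.0291). Fgr, a Src family kinase of myeloid cells that acts downstream of β2 integrins, fell by 0.46 (SE 0.08, adjusted p = 0.0125), from 266 to 350 CPM in blank to 211 to 239 CPM in treated libraries. The exchange factor Vav1 (-0.60, adjusted p = 0.0401) lay close to the threshold.

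Rasgrp1, an activator of Ras family GTPases, was unlike the others. In WT it was 45.0, 53.4 and 16.4 CPM in blank cells, against 12.2, 9.83 and 12.4 CPM with R300. In KO it was 50.1, 45.4 and 14.03 CPM, against 12.6, 12.04 and 6.90 CPM. Its average log2 fold change was -1.77 (SE 0.35, adjusted p = 0.0195), but in the libraries without Xist the blank level was close to that of the treated libraries with Xist, and it was lower still with R300. Edil3, a secreted inhibitor of LFA-1 binding, rose by 1.03 (SE 0.23, adjusted p = 0.0345) at levels of 0.495 to 2.32 CPM. Keeping 1 library of each near-alike R300 pair ended the calls of Icam1 (adjusted p = 0.117), Fgr (0.141), Apbb1ip, Rasgrp1, Vav1 and Edil3. Leaving out single libraries ended 4 of 12 for Apbb1ip, 3 for Rasgrp1, 10 for Vav1 and 9 for Edil3, and 0 for Icam1 and Fgr. Among the lateral partners, Plaur, the urokinase receptor that associates with Mac-1, had the lowest p (average log2 fold change 0.69, SE 0.22, adjusted p = 0.128).

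**Figure D4:**
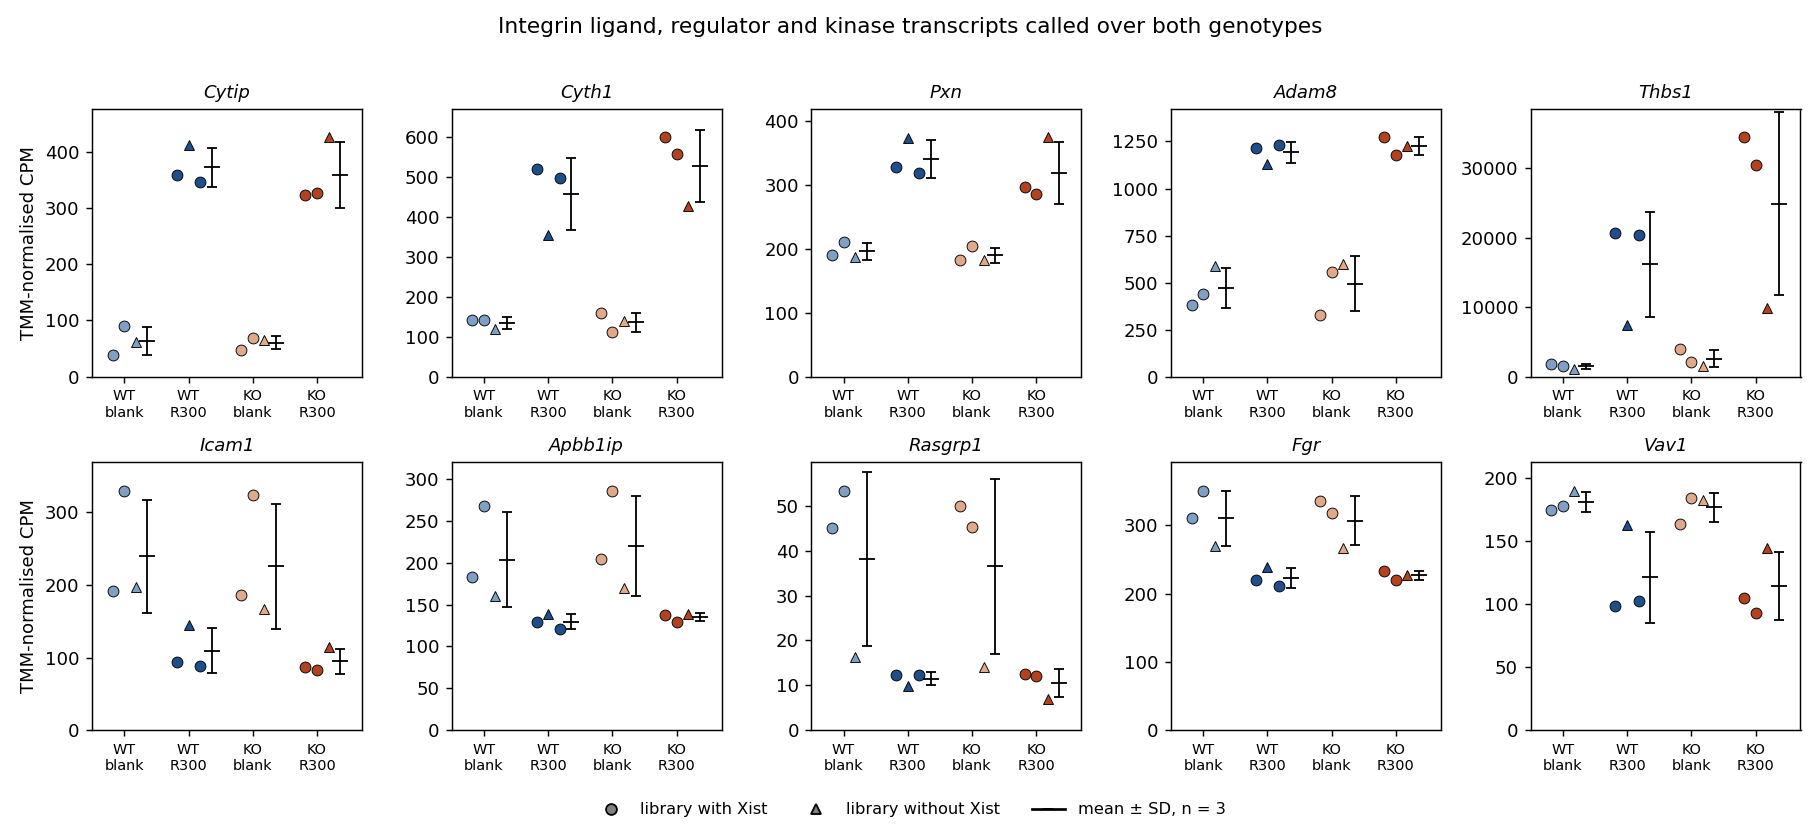
TMM-normalised CPM by library and group of 10 integrin ligand, regulator and kinase genes that passed the test in the average over both genotypes, with mean and SD of 3 libraries; triangles are libraries without Xist. Cytip, Cyth1, Pxn, Adam8 and Thbs1 are higher in all 6 treated libraries than in all 6 blank ones, and Icam1, Apbb1ip, Rasgrp1, Fgr and Vav1 are lower.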

How the data were processed

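Per the labels' protocols, messenger RNA was enriched by its poly(A) tail and prepared with NEBNext Ultra, a chemistry that keeps no strand information. FastQC 0.12.1, fastp 0.23.4, HISAT2 (given as version 2), featureCounts 2.0.3, DESeq2 1.42.0 and the mm10 genome are named in the submitters' processing notes. The authors deposited unnormalised read counts in 35050 gene rows for 12 libraries. The 102 rows without a symbol, 0.0232% to 0.0328% of each library's counts, were left out.

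Counts of all 12 libraries were fitted together with edgeR 4.0.16 in R 4.3.3 (TMM normalisation, filterByExpr, robust quasi-likelihood test, 1 mean per group). The fit tested 16546 genes in 7 comparisons, and a gene was called at a Benjamini-Hochberg adjusted p under 0.05. Genes varied by a common biological coefficient of 0.267, and the fit was tested on simulated counts. The simulated libraries were independent of each other, so that test does not cover the likeness between libraries seen here. Intervals of log2 fold changes are 95% intervals of the fit. CPM are TMM-normalised, with the SD over 3 libraries. The labels state biological replicates without naming the animals, so p-values measure the spread between these samples. Exon lengths and positions come from GENCODE M21 on GRCm38, the assembly that mm10 names, and promoters from RefSeq. Reads of Itga4 (8.04% of exonic bases) and Itgav (5.9%) that overlap Cerkl and Gm13684 on the other strand cannot be told apart, and these neighbours held 16 to 74 and 2 to 44 counts.

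The members and gene lists were chosen with earlier results of these data known. Named genes are the 10 members, the called genes of 5 lists of integrin-related genes (at most 3 per direction, list and comparison; 1 of them is not reported here), the lowest p of a list with no call, the 3 most abundant other subunits, Itga2b, Itgb3, Lyz2 and the called marker genes (outside the rule, chosen after their values were seen), and the 3 genes most like the member with the widest range. Alternatives were other size factors, DESeq2, no filter, a fit of 2 groups alone, a replicate block, a term for Xist, only libraries with Xist, 1 library of each near-alike pair, and each library left out. The 2 other exon lengths were added after seeing the data.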

Additional observations from a re-analysis of the deposited data

How the results depend on the processing

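Of 1440 values of the members over comparisons and alternatives, 1439 kept their side of the threshold, and 119 values that passed no test changed sign. The exception was Itga4 over both genotypes: with only the libraries with Xist the number of members called was 1 instead of 0. Leaving out each of the 12 libraries in turn gave 0 to 0 members called in all 7 comparisons.

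The share called over all genes depended more on the processing. For R300 WT, R300 KO and the average R300 effect edgeR called 103, 138 and 603 genes, DESeq2 355, 438 and 1222, a term for the libraries without Xist 347, 450 and 1492, only libraries with Xist 242, 290 and 1004, and 1 library of each near-alike pair 28, 34 and 158. Fitting only the groups compared gave 41 and 43. Leaving out 1 library gave 32 to 135, 45 to 171 and 308 to 852, with the lowest numbers without R300 replicate 1 of WT, KO and WT. For the average KO effect the number was 1, with 50 by DESeq2, 28 with the Xist term, 0 with only libraries with Xist or 1 of each near-alike pair, and up to 10 without KO blank 2. Between KO and WT, DESeq2 called 4 genes in blank and 14 in R300 where edgeR called 0. The cause was not tested.

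Replicate numbers matched the likeness of libraries across groups only in part. Correlations of deviations ran from -0.755 to 0.693 between same-numbered libraries, above 0.1 in 10 of 18 pairs (median 0.250). The 6 pairs of replicate 1 had 0.105 to 0.614. Of the pairs with different numbers, 13 of 36 were above 0.1 (median -0.187). The 6 pairs of libraries without Xist had 0.476 to 0.736, and their replicate number is not the same in every group. The main fit held no term for this likeness. With a replicate block 119, 141 and 667 genes and 0 members were called.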
